A study of Canis lupus familiaris with 17 samples.

Results

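Of the 32912 features in the deposited count table, 41 are named for chromosome 5, 14 or 20 of the dog followed by a running number. There are 12 for chromosome 5, 13 for chromosome 14 and 16 for chromosome 20. All features with such a name were taken, but these chromosomes were chosen with earlier results of the data known. The 41 belong to 208 features of the table that carry a chromosome in their name in place of an Ensembl-style gene ID. The table covers poly(A) RNA from the olfactory epithelium of 17 domestic dogs, 1 library per dog. By the labels, 8 dogs were of weight class Below_10 (5 to 9.79 kg, 6 of scent code 0 and 2 of scent code 1) and 9 of class Over_10 (10.21 to 44 kg, 4 of scent code 0 and 5 of scent code 1). What the scent codes stand for is not spelled out in the labels. Below_10 held a rat terrier, a Chinese Crested, a Jack Russel Terrier, a miniature schnauzer, a Pomeranian, 2 dachshunds and a poodle, aged 4 to 14 by label. Over_10 held a beagle, a cocker spaniel, a basset hound, an English pointer, a bulldog terrier, a Doberman pinscher, a German shepherd and 2 Labrador retrievers, aged 0.5 to 14. Every dog was untreated as far as the labels say, and no group carries an engineered allele. Nearly every breed is represented by 1 dog, so breed and weight class cannot be told apart.

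The olfactory epithelium carries the sensory neurons of smell. Each mature neuron typically expresses 1 odorant receptor gene out of a very large family of G protein-coupled receptors, and these genes lie in clusters on many chromosomes. A receptor's level in bulk tissue therefore reflects both how many neurons chose it and how much RNA each makes, and these cannot be told apart here. The RefSeq gene table of assembly UU_Cfam_GSD_1.0 lists 44 symbols of the receptor family on chromosome 5, 41 on chromosome 14 and 74 on chromosome 20. None of the 32912 IDs matched that table, so it is not known which receptors, if any, the 41 features are, and no sequence is printed for them. Defining markers of the tissue could not be checked for the same reason. Near-identical copies within a family can share reads, which makes single features uncertain. The table gives no feature lengths, so levels are compared for 1 feature across dogs and not between features.

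Libraries held 10536639 to 31637925 counts, and between 197 and 6373 of these fell on the 41 features. Levels are given as CPM (counts scaled to a common library size) after TMM scaling, edgeR's correction for differences in library composition. Library names carry a first-replicate mark for 4 dogs: the older dachshund (labelled age 8), the cocker spaniel, the beagle and the young Labrador retriever (labelled age 0.5). The protocol says that 4 samples were extracted in separate batches, without naming them. The cocker spaniel's library followed the older dachshund's closely, although the labels place these dogs in different classes, scent codes and batches. For the 34 features with at least 10 reads in the older dachshund, the cocker spaniel's count was 0.730 times the older dachshund's at the median (quartiles 0.640 and 0.782, lowest 0.387 for chr14_8, highest 1.52 for chr20_46). Over the 41 features, log2 levels centred on each feature's mean correlated across features with r = 0.95 between these libraries, against at most 0.83 in any other of the 136 pairs of libraries. Features share both libraries and are not independent, so this is a description. Among the 11332 features of the whole table with at least 100 reads in the older dachshund, 1% had a cocker spaniel count under 0.543 times that count. Scaled to library totals this value was 0.588, and the highest in any other ordered pair of libraries was 0.423. The cocker spaniel's column may thus hold reads of the other dog in part, which was not tested and bears on each of its values given here. The main results are therefore given with and without these libraries.

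**Figure D1:**
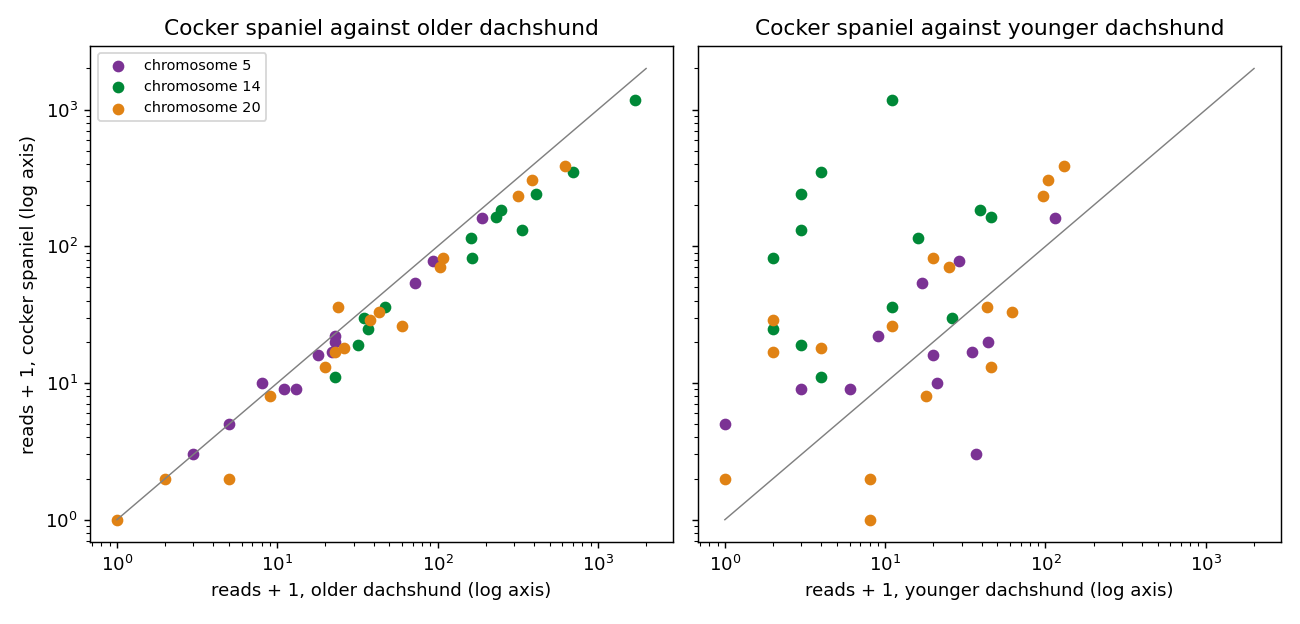
Reads plus 1 of the 41 features in the cocker spaniel (y axis, log) against the older dachshund (left, x axis, log) and the younger dachshund (right), 1 point per feature, coloured by chromosome; the grey line marks equal counts. On the left the points lie in a narrow band just under the line, and on the right they scatter widely.

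Chromosome 5 features were read in small dogs and nearly unread in most large ones, whereas chromosome 14 and 20 features were read in both classes. Libraries were thinned to the smallest total, 10536639 counts, and a feature with 5 or more of the remaining reads in a dog was counted as detected there. On chromosome 5, 68 of 96 combinations of feature and Below_10 dog were detected (70.8%) and 19 of 108 in Over_10 (17.6%). On chromosome 14 the shares were 82.7% and 59.0%, and on chromosome 20 they were 75% and 47.2%. Of the 19 chromosome 5 detections in Over_10 dogs, 12 were in the young Labrador retriever and 6 in the cocker spaniel. The marked Over_10 dogs, at 10.21, 12.247 and 20.4 kg, were the lightest of their class. Wherever marked libraries are left out, the Over_10 dogs compared are thus the heavier ones, at 22.67 to 44 kg. Without the 4 marked libraries 7 Below_10 and 6 Over_10 dogs remained. In these, 73.8% of the Below_10 and 1.39% of the Over_10 combinations were detected for chromosome 5 (1 of 72 in Over_10), 80.2% and 51.3% for chromosome 14, and 74.1% and 40.6% for chromosome 20. A feature with 0 reads in a dog may still be present at up to 3 reads, which is 0.128 to 0.390 CPM depending on the library. That limit, like the Wilson intervals, covers counting error only.

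Per dog, 8.50 ± 1.69 of the 12 chromosome 5 features were detected in Below_10 (SD, n = 8, range 6 to 11) and 2.11 ± 4.20 in Over_10 (n = 9, range 0 to 12). For chromosome 14 the numbers were 10.8 ± 2.49 and 7.67 ± 2.69 of 13, and for chromosome 20 they were 12.0 ± 1.60 and 7.56 ± 2.60 of 16. The chromosome 14 numbers overlapped broadly, from 6 to 13 against 2 to 11. Those of chromosome 20 ran from 9 to 14 against 3 to 12. Without the cocker spaniel and the older dachshund, the chromosome 5 numbers were 8.86 ± 1.46 (SD, n = 7, range 7 to 11) and 1.625 ± 4.21 (n = 8, range 0 to 12). Those of chromosome 14 were then 10.4 ± 2.51 and 7.25 ± 2.55, and those of chromosome 20 were 11.9 ± 1.68 and 7.25 ± 2.60. In batch 4, with 1 dog of each class, the younger dachshund had 2 fewer chromosome 14 features than the German shepherd but 10 more of chromosome 5 and 3 more of chromosome 20. In batches 2, 3 and 6 the Over_10 mean was lower for all 3 chromosomes, and the differences for chromosome 5 were -6.00, -7.00 and -7.67 features.

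**Figure D2:**
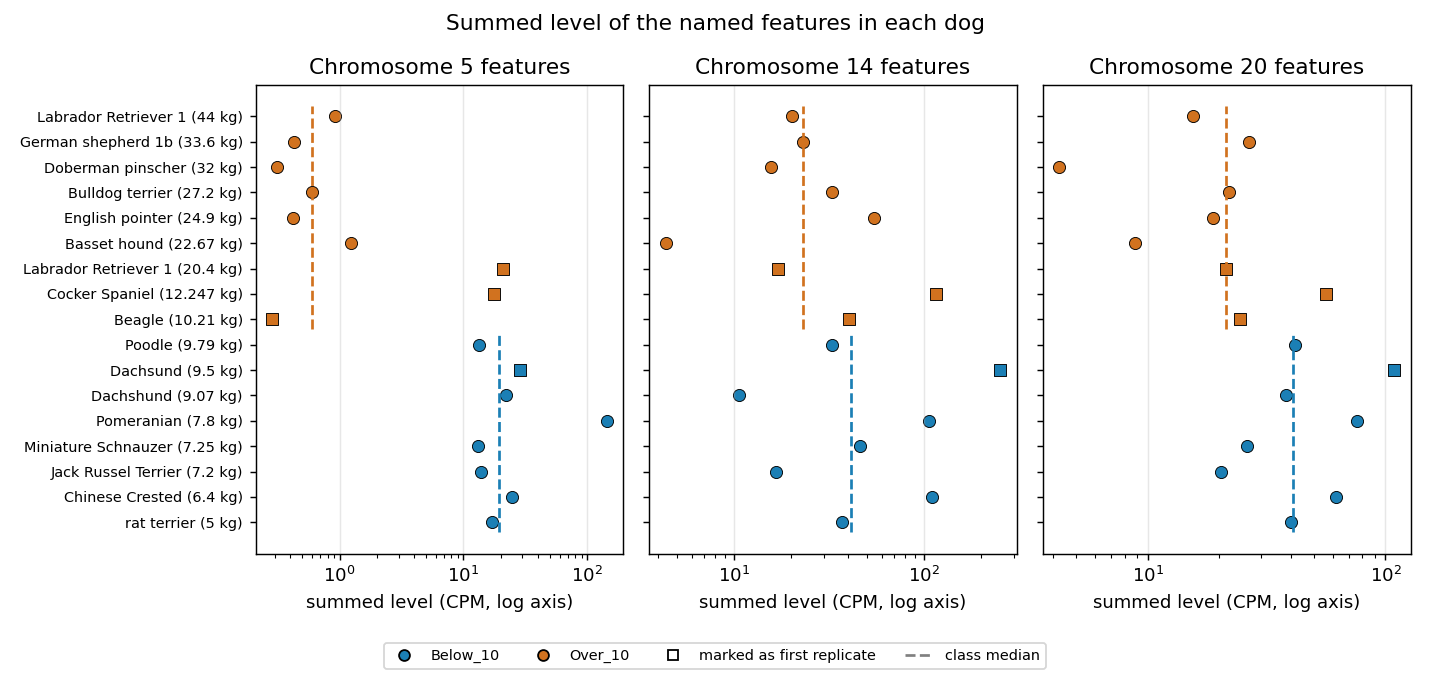
Summed level of the chromosome 5, 14 and 20 features (x axis, CPM, log) in each dog (y axis, ordered by weight class and weight); dashed lines are class medians and squares mark libraries labelled as a first replicate. Chromosome 5 leaves a gap between 1.25 and 13.1 CPM with 7 Over_10 dogs below it, and chromosomes 14 and 20 leave none.

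Summed over its features, chromosome 5 made up 44.0% of the reads of all 41 in the Pomeranian (95% Wilson interval 42.1 to 45.9), the highest share of any dog, and 35.4% (32.9 to 37.9) in the young Labrador retriever. It made up 7.36% (6.74 to 8.03) in the older dachshund, the lowest share among Below_10 dogs, and 0.441% (0.171 to 1.13) in the beagle, the lowest of all. The basset hound, with 197 reads on the 41 features, had 8.63% (5.46 to 13.4), so that this share did not separate the classes.

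The ratio of chromosome totals within a library does not depend on library scaling, apart from the 0.5 CPM added to each total. Taken as the log2 total of chromosome 5 minus that of chromosome 20, it was -0.93 ± 0.86 in Below_10 (SD, n = 8) and -3.19 ± 1.67 in Over_10 (n = 9), a 4.79-fold difference. For chromosome 5 minus chromosome 14 it was -1.03 ± 1.37 and -3.69 ± 2.05, a 6.33-fold difference. For chromosome 20 minus chromosome 14 it was -0.10 ± 0.96 and -0.50 ± 0.88, a difference smaller than the spread between dogs. Both ratios with chromosome 5 were lower in Over_10 dogs in each of batches 2, 3, 4 and 6: Over_10 minus Below_10 lay between -4.09 and -1.33 against chromosome 20 and between -5.69 and -2.47 against chromosome 14. The ratio of chromosome 20 to 14 was lower in batches 2, 4 and 6 and 0.19 higher in batch 3. The log2 total of chromosome 14 itself changed sign between batches: Over_10 minus Below_10 was 0.61 and 1.08 in batches 2 and 4 and -1.59 and -1.0 in batches 3 and 6. Without the 4 marked libraries, chromosome 5 minus 20 ran from -1.62 to 0.92 in Below_10 and from -4.87 to -2.41 in Over_10 dogs, with no overlap. Chromosome 5 minus 14 still overlapped, from -2.14 to 1.02 and from -5.91 to -1.49, the last being the basset hound. With only the cocker spaniel and the older dachshund left out, chromosome 5 minus 20 overlapped as well. It then ran from -1.62 to 0.92 in Below_10 and from -4.99 to -0.02 in Over_10 dogs, the last being the young Labrador retriever. These are sums over features picked with earlier results known and carry no p-value.

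The chromosome 5 features had a common course. Feature chr_5_4 had 4.70, 7.80 and 69.5 CPM (lowest, median, highest) in the 8 Below_10 dogs and 0, 0.157 and 7.24 CPM in the 9 Over_10 dogs. It was detected in 8 of 8 and 3 of 9. The highest Below_10 value was the Pomeranian's, and the Over_10 dogs that reached the Below_10 range were the cocker spaniel (7.24 CPM) and the young Labrador retriever (6.64 CPM). Feature chr_5_12 had 0.551, 1.72 and 14.9 CPM in Below_10 and 0, 0.253 and 2.40 CPM in Over_10 dogs. Feature chr_5_10 had 0.0844, 1.55 and 22.6 CPM in Below_10 and 0, 0 and 2.04 CPM in Over_10 dogs. Among small dogs alone the last ran from 1 read in the Chinese Crested to 174 reads in the Pomeranian. The other 9 features had medians of 0.163 to 1.79 CPM in Below_10 and 0 to 0.0858 CPM in Over_10 dogs. Apart from chr_5_4, detected in the basset hound, none of the 12 was detected in an unmarked Over_10 dog.

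Chromosome 14 held features of contrasting course. Feature chr14_12 had 1.34, 6.24 and 24.2 CPM in Below_10 and 0, 0.152 and 7.37 CPM in Over_10 dogs, where only the cocker spaniel (7.37 CPM) and the young Labrador retriever (3.83 CPM) exceeded 0.293 CPM. Together with chr14_13, chr14_24 and chr14_39 it was detected in no unmarked Over_10 dog; these 4 were singled out after their values were seen. The other 9 features of the chromosome were each detected in at least 3 of the 6 unmarked Over_10 dogs. Among them, chr14_31 had 0.678, 9.53 and 105 CPM in Below_10 and 2.64, 9.44 and 53.4 CPM in Over_10 dogs, so the class medians nearly coincided. It was lowest in the younger dachshund and highest in the older one. Feature chr14_40 had 0.203, 9.05 and 42.9 CPM against 0.513, 6.05 and 15.9 CPM, and chr14_8 had 0.136, 4.51 and 22.9 CPM against 0, 1.79 and 5.88 CPM. Feature chr14_21 had 0.0678, 1.01 and 9.96 CPM in Below_10 and 0.146, 1.52 and 3.66 CPM in Over_10 dogs, with the higher median in the large dogs. In each of these 4 the classes overlapped over most of their range.

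Chromosome 20 held features of both kinds as well. Feature chr20_37 had 1.29, 3.40 and 17.9 CPM in Below_10 and 0, 0.152 and 6.39 CPM in Over_10 dogs, with only the young Labrador retriever (6.39 CPM) and the cocker spaniel (3.66 CPM) above 0.293 CPM. It was detected in no unmarked Over_10 dog, and neither were chr20_12, chr20_35, chr20_38, chr20_40, chr20_42 and chr20_43. Of these 7, chr20_43 was detected in no dog at all, with 16 reads over the 17 libraries, and chr20_12 in 3 dogs. Features with running numbers 5 to 9 were read in nearly every dog. Of these, chr20_5 had 3.81, 9.64 and 37.9 CPM in Below_10 and 1.15, 4.55 and 18.3 CPM in Over_10 dogs. Feature chr20_7 had 2.52, 6.70 and 19.4 CPM against 0.393, 1.15 and 10.5 CPM. Feature chr20_9 had 2.17, 7.30 and 23.6 CPM against 0.393, 1.61 and 13.8 CPM. Both had lower medians in large dogs and reads in every dog, and the next highest Over_10 value of chr20_9 after the cocker spaniel's 13.8 CPM was 2.64 CPM. Feature chr20_17 ran the other way, with 0, 0.382 and 2.26 CPM in Below_10 and 0.0852, 1.27 and 2.36 CPM in Over_10 dogs.

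**Figure D3:**
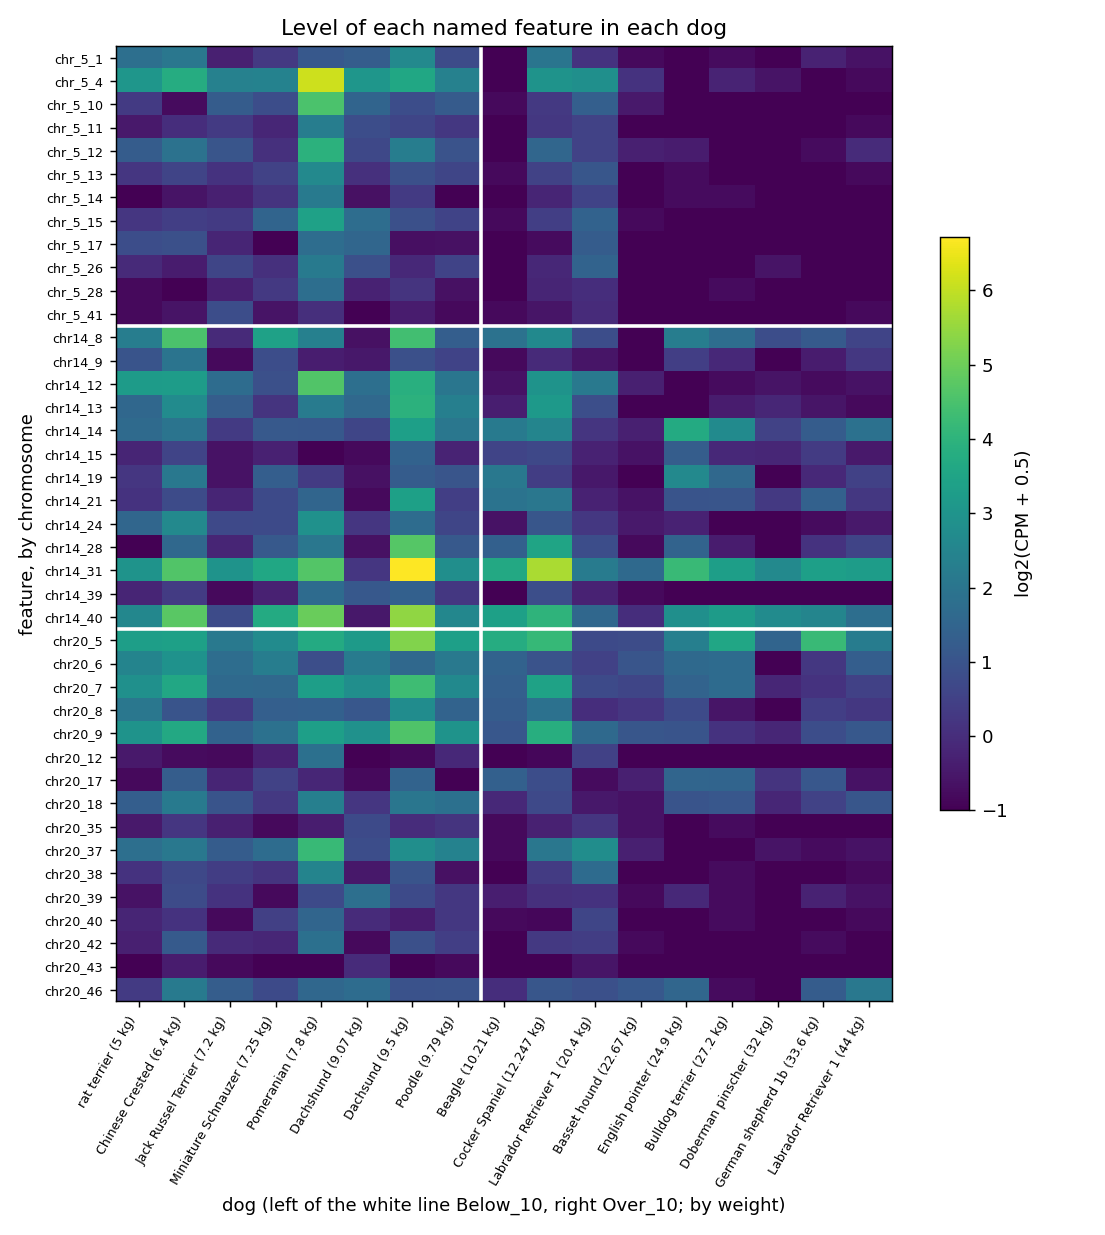
Level of each of the 41 features (rows, by chromosome) in each of the 17 dogs (columns, by weight class and weight) as log2(CPM + 0.5); white lines separate chromosomes and classes. The upper right block, chromosome 5 in Over_10 dogs, is dark apart from the cocker spaniel and the young Labrador retriever, and single rows of chromosomes 14 and 20 share that course.

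In the whole table, 17163 features were detected in at least 4 of the 7 unmarked Below_10 dogs, and 358 of these (2.09%) in none of the 6 unmarked Over_10 dogs. For chromosome 5 this held for 8 of 9 features, for chromosome 14 for 4 of 12 and for chromosome 20 for 4 of 12. For comparison, it held for 21 of 25 features of chromosome 21 and 10 of 30 of chromosome 18. The reverse, detection in at least 4 unmarked Over_10 dogs and in no unmarked Below_10 dog, was met by 33 of 16678 features and by none of the 41. The ranges of the classes did not overlap among unmarked dogs for 13 of the 41 features, each lower in Over_10: 6 of chromosome 5, 4 of chromosome 14 and 3 of chromosome 20. Among the 23 that passed the low-count filter there were 8, each lower, and among all 16202 features that passed it 2.1% were lower and 1.67% higher without overlap in these dogs. Over all 17 dogs none of the 41 was without overlap, where 0.16% of all features tested were lower and 0.599% higher.

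The weight class test asks whether a feature's level differs between large and small dogs once batch and scent code are taken into account. It was edgeR's quasi-likelihood test, fitted on all features that passed its low-count filter, with Benjamini-Hochberg adjustment over all 16202. The filter left 23 of the 41: 4 of chromosome 5, 10 of chromosome 14 and 9 of chromosome 20. None of the 23 was called at an adjusted p of 0.05, where 3.61% of all features were called lower and 5.33% higher in Over_10 dogs. Of the 23, 7 had an unadjusted p under 0.05, against 26.6% of all features. DESeq2, run on all 41, called 13 lower and none higher (5.57% and 5.95% of its 27482 features): 7 of chromosome 5, 3 of chromosome 14 and 3 of chromosome 20. It gave no adjusted p to chr_5_41, chr20_35 and chr20_43, so these could not be called. Its shares likewise count features without an adjusted p. The fitted values that follow are edgeR's. All 4 tested chromosome 5 features had a fitted log2 fold change below 0, from -3.0 to -1.77 with a median of -2.59. Outside the cocker spaniel and the young Labrador retriever, no chromosome 5 feature had more than 8 reads in an Over_10 dog. In the filtered fits these features were thus tested mainly because of their reads in Below_10 dogs. Their direction was nearly fixed by that and is no separate support. On chromosome 14, 4 of 10 were below 0 (range -2.97 to 1.26, median 0.35), and on chromosome 20, 7 of 9 (range -2.66 to 1.87, median -1.02). Over all features 47.8% were below 0, with a median of 0.03.

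In the edgeR fit a single library moved the count. Without the cocker spaniel, 9 of 22 tested features fell in Over_10 dogs and none rose (5.6% and 6.71% of all features): all 3 tested on chromosome 5, 3 of 10 on chromosome 14 and 3 of 9 on chromosome 20. Leaving out any other single dog gave 0 calls among the tested features of the 3 chromosomes. Over all features, however, those fits called from 1 of 16117 (without the bulldog terrier) to 1583 of 16094 (without the miniature schnauzer). With all dogs 1448 of 16202 were called, so the whole test shifted with single dogs. Feature chr_5_4 went from a log2 fold change of -3.0 ± 1.20 (SE; edgeR adjusted p = 0.132) to -5.04 ± 0.85 (adjusted p = 0.0125). Feature chr14_12 went from -2.97 ± 1.37 (edgeR adjusted p = 0.187) to -5.17 ± 0.63 (adjusted p = 0.00418). Feature chr20_37 went from -2.66 ± 1.03 (edgeR adjusted p = 0.120) to -4.53 ± 0.68 (adjusted p = 0.00988). These have few or no reads in most large dogs, so the size of their change depends on the small count that the fit adds. Feature chr20_9, with reads in every dog, went from -1.56 ± 0.97 (edgeR adjusted p = 0.333) to -2.94 ± 0.32 (adjusted p = 0.00337). Also called were chr_5_12, chr_5_15, chr14_13, chr14_24 and chr20_7, at fitted log2 changes of -3.60, -4.80, -4.31, -3.71 and -2.45. Without the cocker spaniel and the older dachshund 10 of 23 were called lower and none higher (4.42% and 6.56% of all features). Without the 4 marked libraries 13 of 28 were called lower and none higher (4.58% and 4.46%). These were 7 of 8 tested on chromosome 5, 3 of 11 on chromosome 14 and 3 of 9 on chromosome 20. In these dogs a chromosome 5 feature could pass the filter only through Below_10 dogs, so its direction was nearly fixed beforehand. With all dogs, 9 of 23 were called lower with the library total as a covariate (8.7% of all features lower, 10.6% higher). Without the low-count filter 3 of 41 were called lower (1.75% and 2.1%), and by limma on the deposited log2 values 3 of 14 (6.22% and 8.32%). The limma fit had no batch term, as batch was already taken out of those values, so its p-values may be too small. Without the 3 libraries of lowest TMM factor (the cocker spaniel's, the older dachshund's and the Pomeranian's) 8 of 21 were called lower (4.14% and 6.06%).

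Among the features named by rule, chr14_8, chr14_21, chr14_31, chr14_40, chr20_5 and chr20_17 were called under no setting tried. With all dogs chr14_8 was at -0.49 ± 1.01 (SE; edgeR adjusted p = 0.796), chr20_7 at -1.24 ± 0.81 (adjusted p = 0.358) and, on chromosome 5, chr_5_12 at -1.77 ± 1.06 (adjusted p = 0.314). Without the cocker spaniel, chr14_31 had a fitted log2 change of 0.30 ± 0.73 (edgeR adjusted p = 0.826), chr14_40 of 0.06 ± 0.80 (adjusted p = 0.972) and chr14_21 of 0.78 ± 0.79 (adjusted p = 0.558). Feature chr20_17 was the only one of chromosome 20 above 0, at 1.95 ± 0.98 (edgeR adjusted p = 0.211), and it was above 0 in all 28 fits that tested it. Feature chr20_5 was at -0.65 ± 0.52 (edgeR adjusted p = 0.450) and was within 0.06 of 0 with all dogs. With batch left out of the model, chr14_21, chr14_31 and chr14_40 turned from positive to negative values (closing section), so no direction is given for them.

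**Figure D4:**
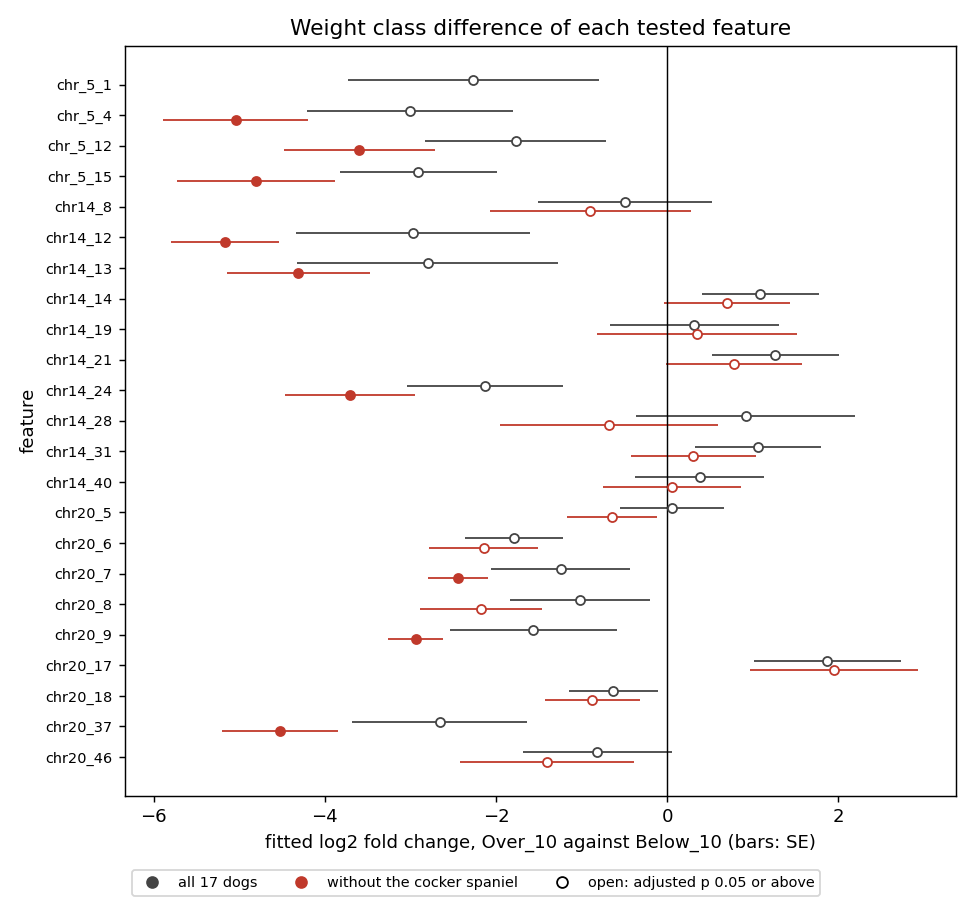
Fitted log2 fold change of Over_10 against Below_10 dogs (x axis, with SE) for each tested feature (y axis), with all 17 dogs (grey) and without the cocker spaniel (red); filled points have an edgeR adjusted p under 0.05. The 9 filled points are all red and lie between -5.17 and -2.45, in all 3 chromosomes.

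Between scent codes, the second comparison in the labels, none of the 41 features was called. None of the 23 was called by edgeR (0% of all features were called either way), and none had an unadjusted p under 0.05, against 1.78% of all features; DESeq2 called none of the 41 (0.0218% of all features lower and 0.0109% higher). With a term for library size in the model, edgeR called none of the 23 (0.00617% either way). With all dogs, fitted values lay below 0 in scent code 1 for 4 of 4 features of chromosome 5, 10 of 10 of chromosome 14 and 6 of 9 of chromosome 20. Over all features 53.1% lay below 0. Without the cocker spaniel and the older dachshund, 12 of 23 did. Feature chr_5_4 then went from -2.03 ± 1.53 to 0.73, chr14_12 from -1.35 ± 1.56 to 0.64 and chr20_37 from -1.36 ± 1.28 to 0.93 (SE; edgeR adjusted p above 0.99 for the first value of each), so no direction is given. Mean log2 totals were 3.12 ± 2.43 in scent code 0 (SD, n = 10) and 2.09 ± 2.38 in scent code 1 (n = 7) for chromosome 5, 5.52 ± 1.04 and 4.59 ± 1.77 for chromosome 14, and 4.89 ± 1.16 and 4.73 ± 1.11 for chromosome 20. Each difference was smaller than the spread between dogs. Within batches they were -2.24, -0.93 and -0.77, and in batches 3 and 6 every dog of scent code 1 was Over_10. The scent by weight class interaction was called for none of the 23 features (0% of all features).

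Across dogs, chromosome 5 features ranked the dogs more alike than those of the other chromosomes did. Rank correlations of log2 levels were computed for features detected in at least 5 dogs (10 of chromosome 5, 13 of chromosome 14 and 14 of chromosome 20). They share libraries and are given as a description. Over 17 dogs the median Spearman's rho was 0.80 among the 45 pairs within chromosome 5 (range 0.55 to 0.93), 0.54 among 78 pairs within chromosome 14 (range -0.15 to 0.92) and 0.41 among 91 pairs within chromosome 20 (range -0.38 to 0.93). Between chromosomes it was 0.24 for 5 and 14, 0.61 for 5 and 20, and 0.41 for 14 and 20. Without the cocker spaniel and the older dachshund the medians within chromosomes 5, 14 and 20 were 0.81, 0.44 and 0.43, and between chromosomes they were 0.12 for 5 and 14, 0.58 for 5 and 20, and 0.34 for 14 and 20. For 5 and 14 the median was -0.03 without the 3 libraries of lowest TMM factor and 0.07 with batch means removed. Chromosome 5 features followed those of chromosome 21 with a median rho of 0.81, as closely as they followed each other. Since chromosome 5 levels fall into separate ranges, the classes were also taken alone. Among the 8 Below_10 dogs the medians within chromosomes 5, 14 and 20 were 0.33, 0.62 and 0.29, so that chromosome 14, not 5, was the most coherent there. Among the 9 Over_10 dogs they were 0.69, 0.46 and 0.22. The chromosome 5 value is limited, since its features had few or no reads outside the cocker spaniel and the young Labrador retriever. It thus rests mainly on these dogs against values at or near 0, and the cocker spaniel's column may hold reads of the older dachshund. The median of chromosome 5 with 21 was 0.40 in Below_10 and, with the same limit, 0.71 in Over_10 dogs. That of chromosome 5 with 20 was lower within each class than over 17 dogs, at 0.21 and 0.35.

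For single features, the order of the correlations depended on which dogs were taken. Over 17 dogs chr14_12 had a median rho of 0.81 with the chromosome 5 features and 0.36 with the other features of its own chromosome, and its closest partner was chr_5_4 (rho = 0.95). Among Below_10 dogs alone the order was reversed, at 0.42 and 0.65. The 4 chromosome 14 features that were singled out for their absence in unmarked Over_10 dogs share that absence with chromosome 5, so their values of 0.73 to 0.85 with chromosome 5 over 17 dogs restate how they were picked. Among Below_10 dogs chr14_13 had 0.24 with chromosome 5 and 0.56 with its own chromosome, chr14_24 had 0.19 and 0.57, and chr14_39 had 0.61 and 0.45. Feature chr14_8 was closest to chr14_40 (rho = 0.91). On chromosome 20, chr20_37 had a median rho of 0.80 with chromosome 5 features over 17 dogs and 0.23 in Below_10 dogs, and chr20_9 had 0.76 and 0.17. Feature chr20_5 had 0.14 and 0.30, and chr20_17 had -0.33 and 0.17. Outside the 3 chromosomes, the tested features whose levels ranked most like the totals over 17 dogs were ENSCAFG00000023169 for chromosome 5 (Spearman's rho = 0.94), chr35_5 for chromosome 14 (rho = 0.94) and ENSCAFG00000009090 for chromosome 20 (rho = 0.95), each the highest of 16179 searched.

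**Figure D5:**
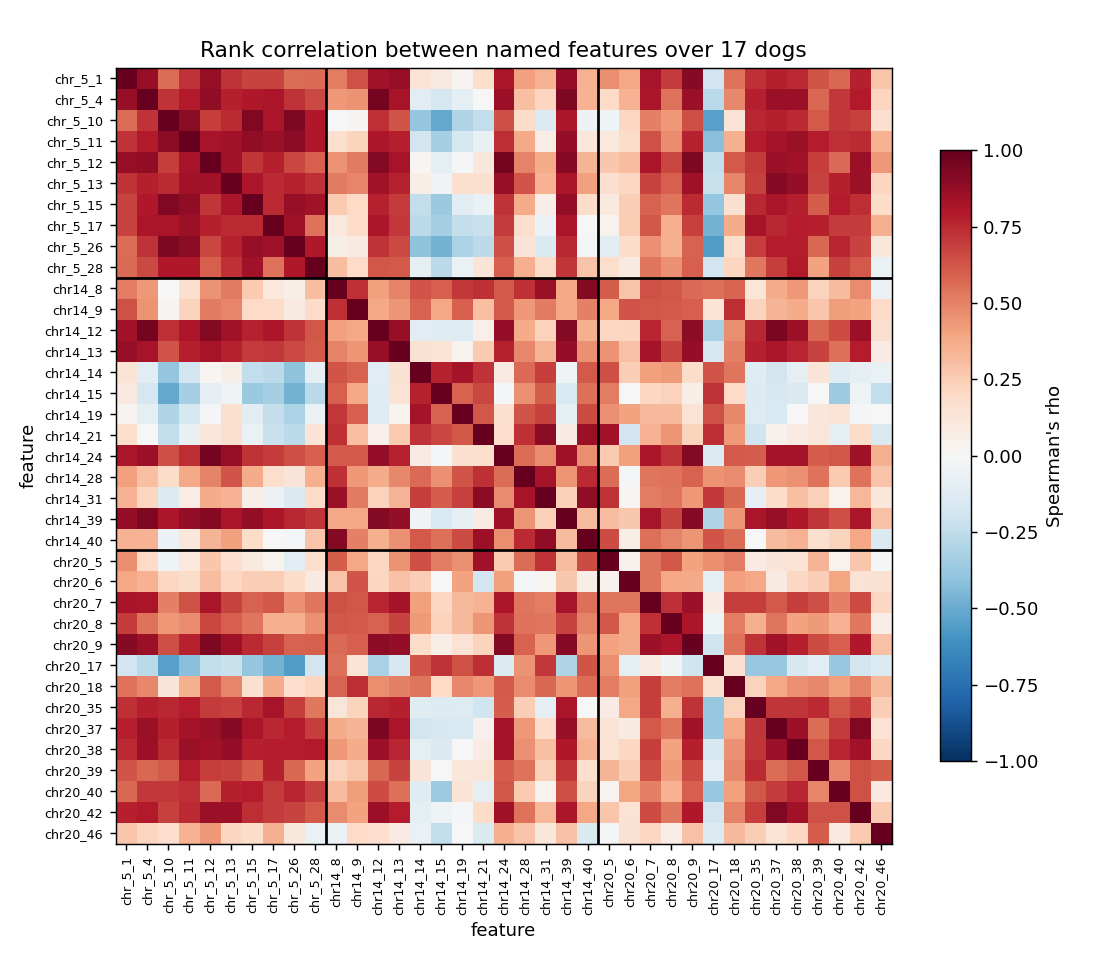
Spearman's rho over 17 dogs between the 37 features detected in at least 5 dogs (both axes, by chromosome; black lines separate chromosomes). The chromosome 5 block is red throughout (0.55 to 0.93), and the chromosome 14 and 20 blocks hold values of both signs.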

How the data were processed

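Counts in the authors' deposited table are unnormalized whole numbers for each feature and library. The authors' second deposited table holds log2 expression values with, per its name, a batch effect taken out, and served only as an alternative (14 of the 41 features are in it). The submitters' processing notes name Trim Galore 0.3.1 and STAR 2.5.3, and without versions or roles HTSeq and the R packages edgeR, DESeq2 and limma. Genome build, annotation and strand handling: not given in the sources used here.

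Features passing edgeR's filterByExpr (minimum count 10, on scent codes) were TMM-scaled and tested with edgeR 4.0.16 (R 4.3.3; quasi-likelihood F-test, robust) in a model with batch, weight class and scent code, leaving 9 residual degrees of freedom. SE is the log2 fold change divided by the square root of F. The test was also run on simulated counts with weight class changes in randomly drawn features and no batch or scent effect. That run was not set up for features with few reads or for libraries that share reads, so it does not bear on these. DESeq2 1.42.0 and limma 3.58.1 were alternatives. Thinning, totals, ratios and correlations used Python 3.11.15 with numpy 2.4.6. Replicates are single dogs, and p-values measure the spread between them.

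The 41 features and the measures were chosen with earlier results of these data known. Named with values are called features and, per chromosome, the 3 features with the highest mean CPM and the tested features with the highest and the lowest weight class log2 fold change, and the outside feature closest to its total; others named were chosen after their values were seen. The planned cell type marker lists need gene names and were not run.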

Additional observations from a re-analysis of the deposited data

Results flagged for a closer look

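Within a weight class or scent code of up to 10 dogs, 5 values stood apart from their nearest neighbour by more than Dixon's 95% limit; chance alone flags about 1 in 20 groups, and 84 were checked. The Pomeranian had a log2 chromosome 5 total of 7.17, above the other Below_10 dogs (next 4.87), and 69.5 CPM of chr_5_4 (next 13.3 CPM). The Doberman pinscher had a log2 chromosome 20 total of 2.25, below the other dogs of scent code 0 (next 4.27). The young Labrador retriever had 12 of 12 chromosome 5 features detected, above the other Over_10 dogs (next 6, the cocker spaniel). The cocker spaniel had 13.8 CPM of chr20_9, above the other Over_10 dogs (next 2.64 CPM).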

How the results depend on the processing

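None of the 41 features was called between scent codes under any setting tried. Over all features, DESeq2 called 9 of 27482 between scent codes, and edgeR with the library total as a covariate called 2 of 16202. For weight class, edgeR with all 17 dogs called 0 of 23 tested features. Other settings gave 13 (DESeq2), 3 (no low-count filter), 9 (library total as a covariate), 8 (without the 3 libraries with the lowest TMM factors), 13 (without the 4 marked libraries), 10 (without the cocker spaniel and the older dachshund, chosen after their counts were seen) and 3 (limma on the deposited log2 table), each lower in Over_10. Leaving out 1 dog at a time gave 0 to 9, and the 9 came without the cocker spaniel. Over all features these fits called from 1 of 16117 (without the bulldog terrier) to 1985 of 16118 (without the cocker spaniel). No call was gained with the filter on weight classes, without batch, with 1 dog per breed or with weight as a slope. Over all features these settings called 1442 of 15955, 168 of 16202, 1125 of 16534 and 100 of 16202, in that order. The fit with 1 dog per breed left out the younger dachshund and the older Labrador retriever. It kept the older dachshund, the cocker spaniel and the young Labrador retriever, so it does not show the result without these libraries. The edgeR fit with all dogs called 1448 of 16202. The cause of these differences was not tested.

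Some weight class log2 fold changes that were not called changed sign. Without batch, chr14_21 was -0.32, chr14_31 -0.73, chr14_40 -1.24 and chr20_5 -0.61. With 1 dog per breed, chr14_40 was -0.13 and chr20_5 -0.14. For chr20_5 the value was also -0.14 with the library total as a covariate, -0.43 without the 3 libraries of lowest TMM factor, -0.33 without the marked libraries, -0.43 without the cocker spaniel and the older dachshund, -0.16 in the deposited log2 table and -0.23 per doubling of weight. Leaving out 1 dog, chr14_8 ran from -1.15 to 0.28, chr14_40 from -0.15 to 0.89 and chr20_5 from -0.65 to 0.28.

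For scent code, where none was called, the negative log2 fold changes of chr_5_4, chr_5_12, chr14_12, chr20_9 and chr20_37 turned positive without the 3 libraries of lowest TMM factor (0.75, 0.97, 0.65, 0.50 and 0.95), without the marked libraries (1.87, 1.71, 1.00, 0.50 and 1.27) and without the cocker spaniel and the older dachshund (0.73, 0.97, 0.64, 0.50 and 0.93). Without batch, chr14_21 was 0.73, chr14_31 0.087, chr20_5 0.50 and chr20_37 0.10. With 1 dog per breed chr14_21 was 0.32, and in the deposited log2 table chr20_9 was 0.11. Leaving out 1 dog, chr14_21 ran from -0.95 to 0.43, chr20_5 from -0.95 to 0.17, chr20_9 from -0.69 to 0.72 and chr20_17 from -1.81 to 0.85.

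In Below_10 dogs alone the median correlation within chromosome 5 was 0.33, and that of chromosome 5 with 21 was 0.40. The median of chromosome 5 with 20 was 0.61 over 17 dogs, 0.21 in Below_10 and 0.35 in Over_10 dogs. Totals, ratios, detected numbers and the other median correlations within and between chromosomes 5, 14 and 20 moved by less than their spread. No paired analysis was run, because each library is a different dog and the labels pair no dogs across the classes. Depth limits features near the 3-read floor, which holds most chromosome 5 features in large dogs.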

Other observations

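The breeds with 2 dogs show how far dogs of 1 breed, class and scent code can lie apart, with 1 dog on each side and no test. The dachshunds were both Below_10 and scent code 1. Chromosome 14 features summed to 252 CPM in the older one (batch 1, RIN 5.9) and 10.6 CPM in the younger one (batch 4, RIN 8.5), whereas chromosome 5 features summed to 28.7 and 22.03 CPM and chromosome 20 features to 108 and 38.3 CPM. The Labrador retrievers, both Over_10 and scent code 1, differed on the other chromosome. Chromosome 5 features summed to 20.99 CPM in the dog of labelled age 0.5 (batch 5) and 0.912 CPM in the one of labelled age 6 (batch 6), while chromosome 14 features summed to 17.0 and 20.1 CPM and chromosome 20 features to 21.3 and 15.5 CPM. Batch, age and first-replicate mark differ within both pairs and cannot be told apart from the dog.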
